A study of Mus musculus with 2 samples.

Results

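The receptors that bind the Fc part of IgG, their signaling chain and the neonatal Fc receptor were followed in the immune cells of mouse dorsal root ganglia (DRG), the ganglia along the spinal cord that hold the cell bodies of sensory neurons. The genes were fixed by name: Fcgr1, Fcgr3 and Fcgr4 (activating receptors), Fcgr2b (the inhibitory receptor), Fcer1g (the FcRγ chain) and Fcgrt (the neonatal Fc receptor, FcRn), 6 of the 16819 gene symbols measured. All 6 were detected, and all 6 passed the filter on low counts in each fit made here. CD45+ DAPI- cells were sorted from pooled cervical, thoracic and lumbar DRGs of naive, perfused wild-type BALB/cAnNRj mice, 3 male and 3 female, and tagged with 1 hashtag antibody per mouse before a single 10x 3′ lane. The animals carried no transgene and had no treatment, and their age is not in the labels. An Fc receptor blocking reagent was added to the cells before the CD45 antibody. What is given here is RNA, as unique molecular identifiers (UMIs), and not receptor on the cell surface.

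IgG acts on leukocytes through these receptors. Fcgr1 binds monomeric IgG with high affinity, whereas Fcgr3 and Fcgr4 bind mainly IgG in immune complexes. The activating receptors have no signaling motif of their own in the mouse and depend on the FcRγ chain, whose ITAM recruits Syk, and which also serves other receptors such as those for IgE and several C-type lectins. Fcgr2b carries an ITIM, recruits the phosphatase SHIP1 and dampens the same signal, and in B cells it restrains the antigen receptor. The balance of activating and inhibitory receptor therefore sets how a myeloid cell answers immune complexes. FcRn belongs to the MHC class I-like molecules, pairs with β2-microglobulin and returns IgG from endosomes instead of letting it be degraded.

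In the mouse genome (GRCm38, GENCODE M21), 4 of the 6 genes lie within 276 kb on chromosome 1. These are Fcgr2b (chr1:170958617-170976547, minus strand), Fcgr4 (chr1:171018920-171029761, plus strand), Fcgr3 (chr1:171051174-171064935, minus strand) and Fcer1g (chr1:171229572-171234365, minus strand). Fcgr1 lies apart (chr3:96282909-96293969, minus strand), as does Fcgrt (chr7:45092990-45103851, minus strand). Fcgr2b and Fcgr3 are close relatives, and 12.8% of the 50-base windows of the Fcgr3 transcript also occur in Fcgr2b. In the last 500 bases, where 3′ reads fall, 0 of 451 windows of any of the 6 genes occurred in the transcript of another gene, so that reads from the ends of Fcgr2b and Fcgr3 could be told apart.

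The promoters are shown because the 3 activating receptors share a short word near the start site that the other 3 genes lack. In the RefSeq promoters (GRCm38.p6, 250 bases before to 50 bases after the start), GAGGAA or its reverse complement TTCCTC, the core bound by the myeloid factor PU.1 and other ETS factors, was searched on both strands. It occurred once in Fcgr1, in Fcgr3 and in Fcgr4, and not in Fcgr2b, Fcer1g or Fcgrt. The shorter GGAA or TTCC within it, the core of sites for ETS factors, does occur in the windows of Fcgr2b, Fcer1g and Fcgrt. The word was chosen after these promoters had been read and is common, since 28.3% of 32851 mouse promoters hold it. The 60 bases around it are given 5′ to 3′ on the strand of each gene, with the match in capitals.
Fcgr1 (chr3:96293992-96294051): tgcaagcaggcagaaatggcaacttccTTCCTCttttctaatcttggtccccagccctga
Fcgr3 (chr1:171059395-171059454): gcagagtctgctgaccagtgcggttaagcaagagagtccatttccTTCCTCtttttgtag
Fcgr4 (chr1:171018866-171018925): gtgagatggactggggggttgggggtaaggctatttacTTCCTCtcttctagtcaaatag
The match began 55 and 22 bases before the start site in Fcgr1 and Fcgr4. In Fcgr3 it began 15 bases before the start used for the printed stretch and 6 bases before another RefSeq start. Both Fcgr3 starts lie inside the gene span given above, which begins at 171064935 on the minus strand. A match is a string of letters and shows no binding, and the absence of these letters in the other windows says nothing of PU.1 there.

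The deposited matrix holds 2668 cells of the 3 male mice (481, 772 and 1415 cells in mouse 1, 2 and 3) with 23403638 UMIs. Cells were sorted into classes by the UMIs of genes outside the family. Macrophages (C1qa, C1qb and C1qc at 0.5% of UMIs or more) were 1468 cells or 55.0% of all, and the others were 91 monocytes, 93 dendritic cells (DCs), 360 neutrophils, 161 B cells and 127 T or NK cells. A further 213 cells met more than 1 gate, 38 were granule protein precursors (Elane, Mpo, Prtn3 and Ctsg) and 117 met no gate. Of 198 cells that met the gates for neutrophils and for T or NK cells, 188 had a Cd3d UMI, and only 10 had a UMI of Cd3e, Cd3g, Trbc1 or Trbc2. In each of the 6 classes, all 4 markers kept out of the gates for that class were detected, and their summed level was highest in the class they belong to. The 3 female mice (382, 313 and 378 cells, with 606 macrophages) came from the same lane and are given as a second set of animals. Levels are UMIs per 1000000 UMIs (CPM) of all cells of a class in a mouse, as mean ± SD over 3 mice. Those of the 6 genes carry no TMM factors, the scaling used in the tests. A small log2 difference can therefore differ in sign from the levels printed. Since 3′ counts depend on the transcript end, levels were compared between classes and not between genes. In cells gated by RNA, fewer expressing cells and less RNA per cell cannot be told apart from a sum, so shares of cells are given beside it.

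Fcgr1, the high-affinity activating receptor, followed the macrophages. Its level was 228, 272 and 348 CPM in the macrophages of mouse 1, 2 and 3, against 96.9, 151 and 188 CPM in monocytes and 31.7, 21.4 and 38.3 CPM in DCs. The 3 ranges did not overlap. In the female mice those of macrophages (233, 258 and 241 CPM) and monocytes (44.1, 258 and 38.9 CPM, 14 UMIs in all) did. Male neutrophils (6.10 ± 6.70 CPM), B cells (3.01 ± 3.09 CPM) and T or NK cells (4.26 ± 1.55 CPM) had at most 10 UMIs in all and could not be ordered. An Fcgr1 UMI was found in 81.5% of macrophages and 45.1% of monocytes (42.7% and 18.6% after thinning each cell to 2000 UMIs, which kept 1438 macrophages and 90 monocytes), but in 2.56% of neutrophils.

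Fcgr3, the receptor for immune complexes on most myeloid cells, was spread more widely. It stood at 689, 751 and 732 CPM in macrophages and 383, 577 and 496 CPM in monocytes. Neutrophils had 275, 314 and 312 CPM and DCs 139, 156 and 131 CPM, without overlap between these neighbors in the male mice. In the female mice macrophages (696, 654 and 701 CPM) lay above the others. Female monocytes (584, 215 and 369 CPM), neutrophils (309, 386 and 216 CPM) and DCs (236, 278 and 331 CPM) overlapped. Within the DCs of the male mice the level was split. Cells with Xcr1 or Clec9a UMIs (cDC1-like cells, the cross-presenting subset, 45 cells) had 0, 5.91 and 19.3 CPM. The other 48 DCs had 192, 315 and 306 CPM. Lymphoid cells held few UMIs. NK cells, in which Fcgr3 is the receptor for antibody-dependent killing, had 8 UMIs in 29 cells. A UMI was found in 8 of the 29 NK cells (27.6%, exact Clopper-Pearson interval of 12.7 to 47.2% at 95%, counting error only) and in 9 of 161 B cells (5.59%, 2.59 to 10.3%), at median depths of 4608 and 3410 UMIs, and after thinning the mean shares were 16.4% and 1.35%. In T cells it was 3 of 75 (4.0%, 0.833 to 11.2%). Whether the Fcgr3 UMIs in B and T cells came from these cells or from free RNA was not tested (Retnlg, a neutrophil gene, was at 30.5 to 56.8 CPM in B cells).

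Fcgr4, a receptor for IgG2a and IgG2b complexes, overlapped between macrophages and the neutrophils that met a single gate. The values were 55.6, 50.5 and 64.0 CPM in macrophages and 39.9, 52.4 and 53.8 CPM in neutrophils, and 20.2, 31.4 and 45.1 CPM in monocytes. DCs followed with 3.17, 9.15 and 17.7 CPM. In T or NK cells, 0 Fcgr4 UMIs were counted, which allows up to 3.90 CPM. Of the activating receptor UMIs, Fcgr4 made up 5.34% ± 0.55 in macrophages and 13.7% ± 0.99 in neutrophils, and Fcgr3 made up 68.3% ± 3.7 and 84.7% ± 2.1. Fcgr1 was 26.4% ± 3.6 of these UMIs in macrophages and 1.64% ± 1.7 in neutrophils. Of the 213 cells set aside for more than 1 gate, 198 met the gates for neutrophils and for T or NK cells. In the cells set aside Fcgr4 was lower, at 10.4, 19.4 and 32.2 CPM, and made up 6.87% ± 1.5 of the activating receptor UMIs. The overlap with macrophages and the share of 13.7% therefore hold for male neutrophils without these cells.

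**Figure D1:**
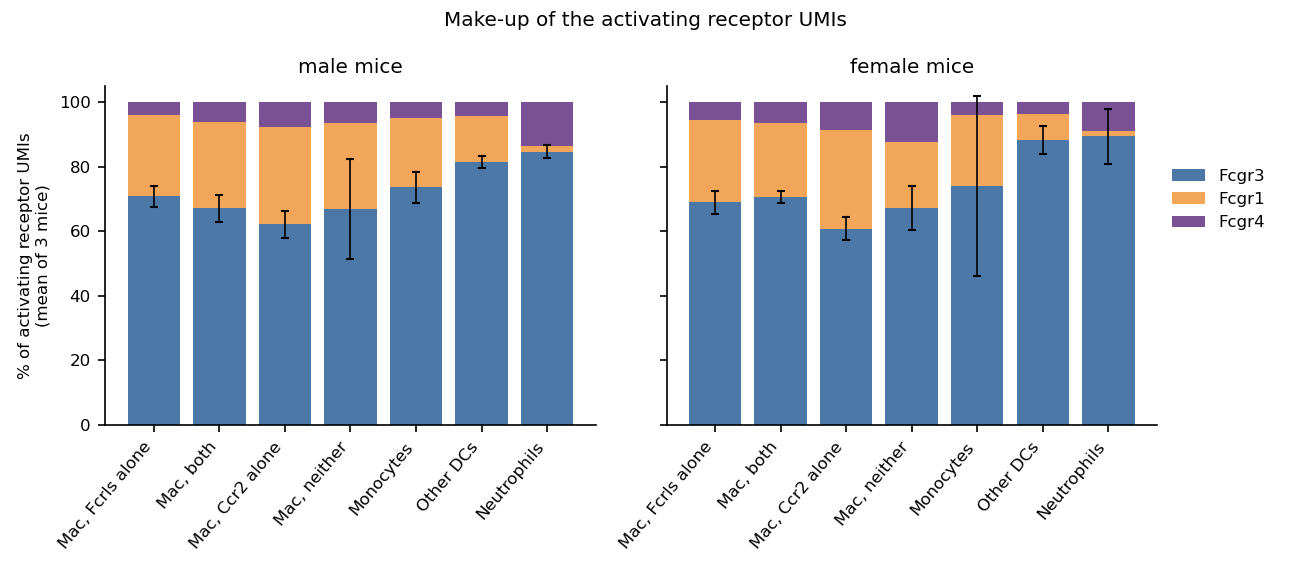
Share of the activating receptor UMIs (y axis, percent) from Fcgr3, Fcgr1 and Fcgr4 as stacked bars by cell class (x axis), as means of the 3 male (left) and 3 female mice (right), with error bars of 1 SD for Fcgr3. In the male mice Fcgr3 takes 70.8% in Fcrls-alone macrophages, 62.1% in Ccr2-alone macrophages and 84.7% in neutrophils, in which Fcgr1 nearly vanishes (1.64%) and Fcgr4 reaches 13.7%. In female neutrophils Fcgr4 is at 8.87% ± 9.11, on 19 UMIs.

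Fcgr2b, the inhibitory receptor, had a different order. Its level was 394, 452 and 419 CPM in macrophages and 285, 433 and 276 CPM in DCs, whose ranges overlap, then 178, 251 and 177 CPM in monocytes. B cells had 30.5, 86.5 and 54.0 CPM and neutrophils 31.9, 33.1 and 24.0 CPM, which overlap as well. Within the DCs, the cDC1-like cells had 145 ± 43.6 CPM and the others 516 ± 169 CPM (350, 687 and 510 CPM), a range that takes in that of the macrophages. Fcgr2b is the sole Fcγ receptor described for B cells, and a UMI was found in 33 of 161 B cells (20.5%, 14.5 to 27.6%), against 2 of 75 T cells (2.67%, 0.325 to 9.30%) that were deeper (median of 4756 UMIs against 3410 in B cells). After thinning, the mean shares were 9.99% and 1.33%. No Fcgr2b UMI was counted in 29 NK cells, which allows up to 10.3% of cells with a UMI and a level of up to 17.4 CPM, and does not limit the share of cells expressing the gene.

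Fcer1g, the chain that the activating receptors need, was abundant in each myeloid class and in NK cells. It was at 2544, 2574 and 2816 CPM in macrophages, 2341, 2221 and 2443 CPM in monocytes, 2014, 1942 and 2159 CPM in neutrophils and 1519, 1239 and 1205 CPM in DCs. These ranges did not overlap in the male mice. In the female mice those of macrophages (2430, 2731 and 2658 CPM), monocytes (2404, 3834 and 1827 CPM) and neutrophils (2196, 2524 and 2098 CPM) did. NK cells had 1793, 1709 and 1734 CPM, close to neutrophils, whereas T cells had 249 ± 75.1 CPM and B cells 41.8 ± 19.1 CPM. All 29 NK cells held an Fcer1g UMI (88.1 to 100%), against 21 of 75 T cells (28.0%, 18.2 to 39.6%) and 34 of 161 B cells (21.1%, 15.1 to 28.2%). The female mice showed the same order for lymphoid cells, with 2435 ± 353 CPM in NK cells, 503 ± 230 CPM in T cells and 79.2 ± 31.0 CPM in B cells.

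Fcgrt, the IgG salvage receptor, was highest in macrophages (496, 416 and 515 CPM), then in DCs (269, 250 and 187 CPM) and monocytes (84.8, 132 and 152 CPM). These 3 ranges were apart. Neutrophils (0, 16.6 and 11.6 CPM), B cells (7.64, 0 and 5.68 CPM) and T or NK cells (16.0, 0 and 11.4 CPM) were near the limit of detection and overlapped.

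**Figure D2:**
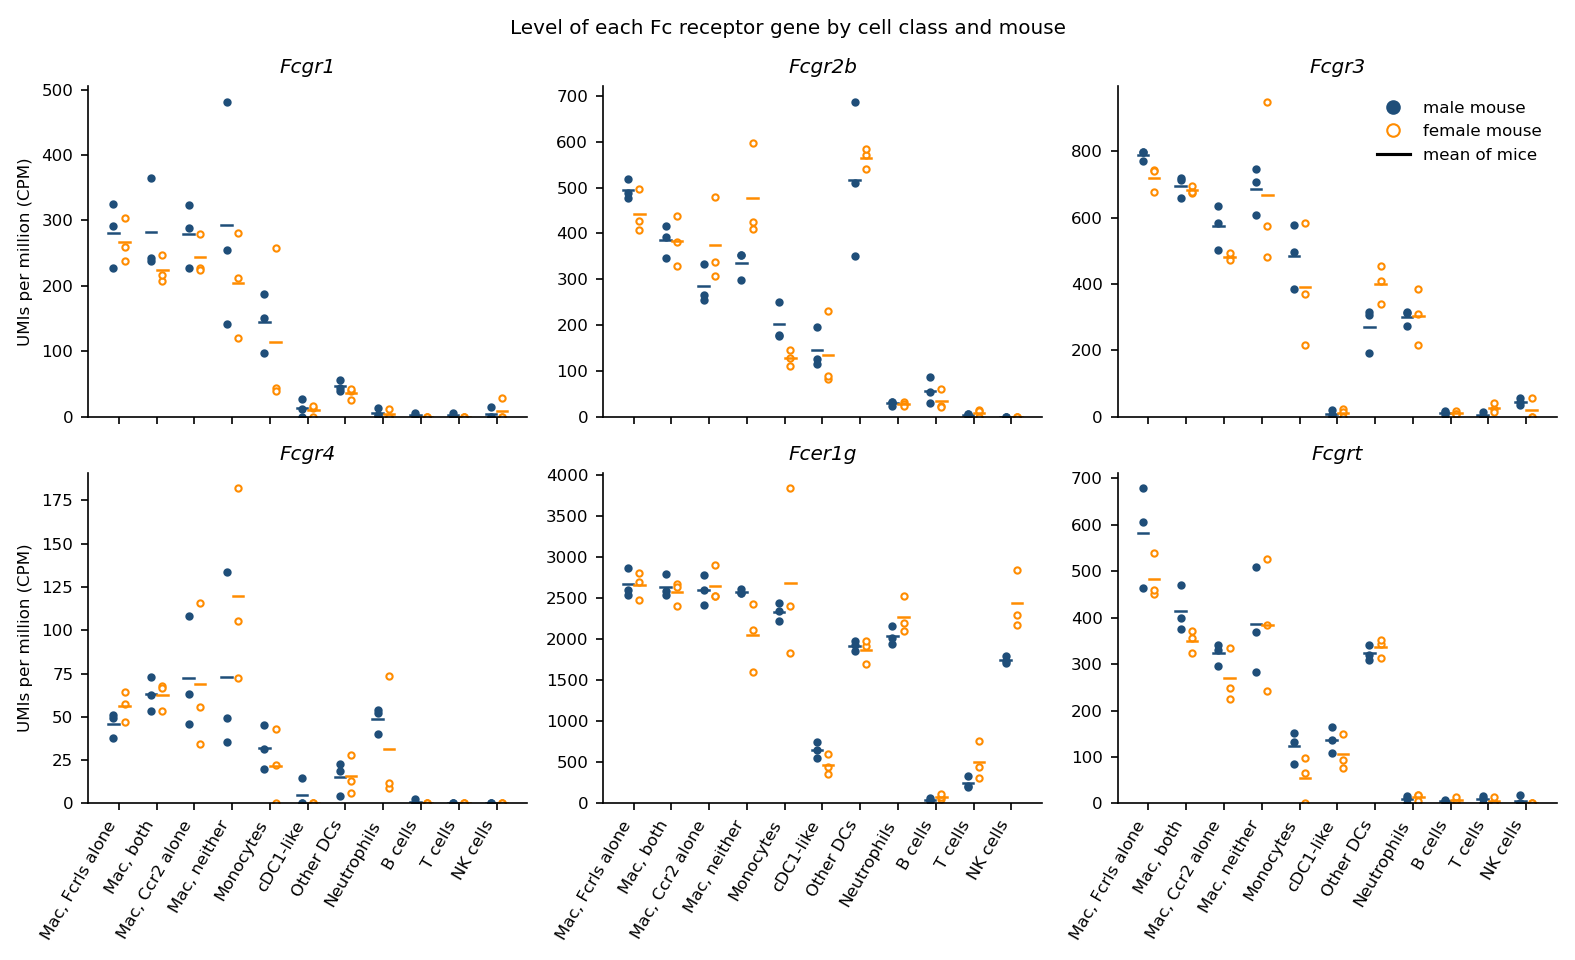
Level of each of the 6 genes (y axis, CPM, 1 panel per gene with its own scale) by cell class (x axis, with macrophages as Mac by Fcrls and Ccr2 UMIs), with filled points for the 3 male mice, open points for the 3 female mice and bars for the means. Fcgr1 and Fcgrt are near 0 in neutrophils and lymphoid cells, Fcer1g is high in NK cells (1745 ± 43.2 CPM in the male mice) as well as in myeloid cells, and Fcgr2b in the other DCs (516 ± 169 CPM) is near that in Fcrls-alone macrophages (495 ± 21.2 CPM).

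The classes were then compared with edgeR's quasi-likelihood test on the sums per mouse (6048 genes tested in the male mice, Benjamini-Hochberg adjusted p taken at 0.05). Against monocytes, the 6 genes were all higher in macrophages, where 15.7% of all genes tested were. Fcgrt differed most (log2 difference of 2.18 ± 0.26 SE, adjusted p = 3.2e-07), followed by Fcgr2b (1.39 ± 0.22, adjusted p = 1.77e-05), Fcgr1 (1.18 ± 0.22, adjusted p = 0.000159) and Fcgr3 (0.86 ± 0.16, adjusted p = 0.000115). Fcgr4 (0.95 ± 0.30, adjusted p = 0.0177) and Fcer1g (0.45 ± 0.15, adjusted p = 0.0208) were nearer the threshold. Without TMM factors the median of all genes moved from 0.05 to -0.20, the split of genes called higher and lower from 948 and 845 to 620 and 1381, and neither Fcgr4 (adjusted p = 0.081) nor Fcer1g (0.18, adjusted p = 0.329) passed. Both calls also ended without mouse 1 (adjusted p = 0.124 and 0.126) or mouse 2 (0.0584 and 0.0887), and that of Fcer1g without mouse 3 (0.0562) or without the filter on low counts (0.0559). With the marker gates doubled, Fcgr4 did not pass (0.64, adjusted p = 0.13). In the female mice, with 21 monocytes, 5 of the 6 genes passed (background 11.0%) and Fcer1g did not (0.43 ± 0.18, adjusted p = 0.101).

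Against DCs, 5 of the 6 genes were higher in macrophages (background 17.2%), and the inhibitory receptor was the exception. Fcgr1 (3.23 ± 0.27, edgeR adjusted p = 4.67e-10), Fcgr3 (2.45 ± 0.17, adjusted p = 2.29e-11) and Fcgr4 (2.33 ± 0.34, adjusted p = 9.43e-06) were higher by over 2 on the log2 scale. The difference in Fcgr4 rests on 16 UMIs in DCs. Fcer1g (1.10 ± 0.15, adjusted p = 1.49e-06) and Fcgrt (1.13 ± 0.23, adjusted p = 0.000353) differed less. For Fcgr2b the difference was 0.45 ± 0.20 (interval of 0.07 to 0.84, adjusted p = 0.0832), with the mouse as a replicate block it passed (adjusted p = 0.0323), and it passed without mouse 2 (adjusted p = 0.0141). In the female mice the same 5 passed (background 14.8%) and Fcgr2b differed by 0.01 ± 0.17 (interval of -0.33 to 0.35, adjusted p = 0.975).

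Against neutrophils, 4 of the 6 genes were higher in macrophages (background 35.2%), and those were Fcgr1, Fcgr2b, Fcgr3 and Fcgrt. Fcgr1 (5.46 ± 0.35, edgeR adjusted p = 9.49e-13), Fcgrt (5.12 ± 0.34, adjusted p = 1.93e-12) and Fcgr2b (3.36 ± 0.25, adjusted p = 1.89e-11) were higher by over 3 on the log2 scale, whereas Fcgr3 differed by 0.75 ± 0.15 (adjusted p = 0.000131). Neutrophils held 10 UMIs of Fcgr1 and 22 of Fcgrt. Both genes passed the filter on low counts through the other classes, where they were high, so the sizes of these differences rest on few neutrophil UMIs. Fcgr4 (-0.34 ± 0.23, interval of -0.78 to 0.10, adjusted p = 0.194) and Fcer1g (-0.15 ± 0.14, interval of -0.43 to 0.14, adjusted p = 0.386) did not pass. Scaling mattered here: without TMM factors the median of all genes went from 0.14 to 0.70, the genes called higher and lower from 2127 and 1825 to 3159 and 1175, Fcgr4 to 0.24 and Fcer1g to 0.40 (adjusted p = 0.0117), so no direction is given for either. The same 4 genes passed in the female mice (background 31.2%). Female neutrophils held 2 UMIs of Fcgr1, 7 of Fcgrt and 14 of Fcgr2b.

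B cells and T or NK cells were set against each other for the genes known in lymphoid cells. Part of the T or NK class met neither split. T cells and NK cells were 75 and 29 of its 127 cells in the male mice, and 51 and 13 of 87 in the female mice. Of all genes, 24.6% differed in the male and 26.0% in the female mice. Fcer1g was lower in B cells than in T or NK cells in the male (-3.91 ± 0.23, edgeR adjusted p = 1.94e-12) and the female mice (-3.11 ± 0.26, adjusted p = 4.46e-10). Fcgr2b was higher in B cells of the male mice (2.09 ± 0.54, adjusted p = 0.00495), and in the female mice the difference was 0.95 ± 0.55 (adjusted p = 0.214). Fcgr3 was lower in B cells of the female mice (-2.55 ± 0.68, adjusted p = 0.00561) and differed by -1.31 ± 0.48 in the male mice (adjusted p = 0.0603). Of the 21 Fcgr3 UMIs in the male T or NK class, T cells held 3 and NK cells 8, and of its 9 Fcgr2b UMIs 2 and 0. Female T cells held 6 activating receptor UMIs, all of Fcgr3, and NK cells 3, against 31 Fcgr3 UMIs in the class. The rest lay in cells of neither split, so these differences are not to T and NK cells alone. The other members had at most 8 UMIs in either class of the male mice. They passed the filter on low counts only through the myeloid classes, which were part of the same fit. Fcgr3, with 9 UMIs in B cells and 21 in T or NK cells of the male mice, also needed the myeloid sums to pass it. In the female mice this held for Fcgr3 and Fcgr2b, so these differences rest on few UMIs.

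**Figure D3:**
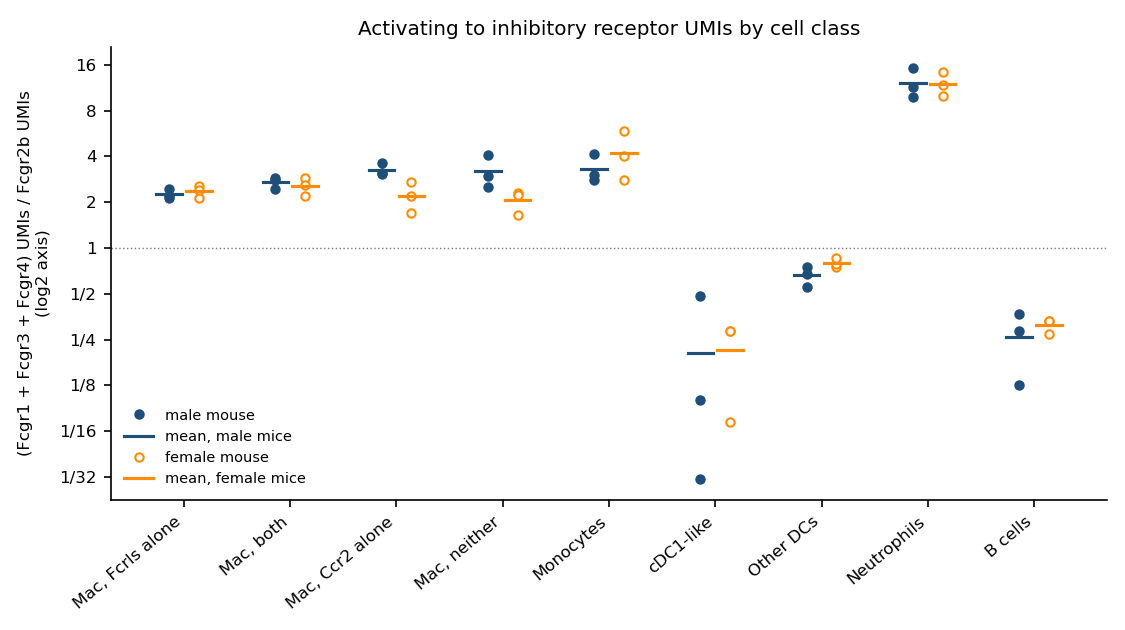
Ratio of activating (Fcgr1, Fcgr3 and Fcgr4) to inhibitory (Fcgr2b) receptor UMIs (y axis, log2 axis) by cell class (x axis), with filled points for the 3 male mice, open points for the 3 female mice and bars for the means. The cDC1-like cells, the other DCs and the B cells lie below 1, the macrophage groups and monocytes between 1.65 and 5.9, and neutrophils at 9.90 or above.

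The ratio of activating to inhibitory receptor, (Fcgr1 + Fcgr3 + Fcgr4) over Fcgr2b UMIs, was formed for each class and mouse. Because UMIs of different genes are not on a common scale, the ratio has no absolute meaning and is read only between classes. In macrophages it was 2.47, 2.38 and 2.73 (2.52 ± 0.18), from 14552 and 5620 UMIs. It was 2.82, 3.03 and 4.13 in monocytes (3.32 ± 0.70), 0.61, 0.43 and 0.68 in DCs (0.57 ± 0.13) and 9.90, 11.5 and 15.4 in neutrophils (12.3 ± 2.8). Thus neutrophils had the highest ratio in each mouse and DCs were below macrophages and monocytes. B cells had 12 activating and 41 inhibitory UMIs, and a ratio of 0.26 ± 0.12. For T or NK cells, with 24 activating and 9 Fcgr2b UMIs and none of the latter in mouse 2, no ratio over mice could be formed.

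None of the 5 class comparisons overlapped in the male mice, and each gave p = 0.1 in a two-sided exact permutation test, the smallest that 3 mice against 3 can give. Over all 6 mice, in an exact paired sign-flip test whose smallest p is 0.03125, macrophages were lower than monocytes by 0.57 on the log2 scale and lower than neutrophils by 2.29, and they were higher than DCs by 1.93 and than B cells by 3.18. Each held in 6 of 6 mice (p = 0.03125, adjusted over 5 tests to 0.0391, exact permutation). The ratio in B cells rests on 12 activating UMIs in the male and 5 in the female mice. Whether these UMIs came from the B cells was not tested. The difference to monocytes was small next to its spread (SD of 0.46 over 6 mice). In neutrophils the size of the ratio rests on 65 Fcgr2b UMIs: with each cell given equal weight it was 23.2, after thinning 19.7, and with the cells that also met the T or NK gate kept as neutrophils (555 cells) 10.2 ± 3.4. In each of these it stayed above that of the other classes tested. Taken singly, Fcgr3 over Fcgr2b was 1.72 ± 0.05 in macrophages and 10.4 ± 2.3 in neutrophils, and Fcgr4 over Fcgr2b 0.14 ± 0.02 and 1.69 ± 0.51, whereas Fcgr1 over Fcgr2b was 0.67 ± 0.14 in macrophages and 0.20 ± 0.19 in neutrophils. In level, neutrophils that met a single gate were below macrophages in Fcgr3 (300 ± 22.2 CPM) and overlapped them in Fcgr4, and their Fcgr2b was at 29.7 ± 5.0 CPM.

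Single cells were then sorted by the kinds of receptor UMIs they held. Of the macrophages, 90.3% ± 2.0 held UMIs of Fcgr2b and of an activating receptor, 8.03% ± 1.9 an activating receptor without Fcgr2b, and 0.82% ± 0.26 the reverse. In neutrophils, 72.8% ± 2.2 held an activating receptor without Fcgr2b and 11.5% ± 1.2 held both kinds, at a median depth of 4371 UMIs against 8589 in macrophages. DCs, the deepest class at a median of 14072 UMIs, had 26.7% ± 11.2 of cells with Fcgr2b and no activating receptor, and 2.13% ± 3.7 with the reverse. These shares depend on depth. With each cell thinned to 2000 UMIs, an activating receptor without Fcgr2b was found in 41.0% ± 3.1 of macrophages, 52.0% ± 2.1 of neutrophils and 7.34% ± 2.9 of DCs. Both kinds were then found in 46.7% ± 3.3, 1.71% ± 0.46 and 20.7% ± 2.8, and Fcgr2b without an activating receptor in 7.25% ± 0.79, 3.17% ± 1.9 and 21.4% ± 5.8. At the full depth, most of the DCs with Fcgr2b and no activating receptor were cDC1-like cells, of which 23 of 45 held Fcgr2b alone, against 3 of 48 other DCs. Among cDC1-like cells the activating and inhibitory UMIs were 27 and 95 (ratio 0.20 ± 0.24), and among other DCs 216 and 324 (0.66 ± 0.10).

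Within the macrophages, the cells were divided by Fcrls, a scavenger receptor-like member of the Fc receptor-like family that marks microglia and other resident macrophages, and Ccr2, the chemokine receptor of cells recruited from blood monocytes. In the male mice, 667 macrophages had UMIs of Fcrls alone, 155 of Ccr2 alone, 579 of both and 67 of neither. Fcrls and Ccr2 set the groups and are not results. Among 5866 genes tested, 9.31% differed between Fcrls-alone and Ccr2-alone macrophages (239 higher and 307 lower in Fcrls-alone cells), and of the 6 Fc receptor genes 2 were higher and 1 lower.

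The inhibitory receptor and FcRn were the ones that were higher in Fcrls-alone cells. Fcgr2b was at 488, 518 and 477 CPM in Fcrls-alone and at 254, 266 and 333 CPM in Ccr2-alone macrophages, with no overlap (log2 difference of 0.67 ± 0.14, edgeR adjusted p = 0.00391). Fcgrt was at 678, 465 and 605 CPM against 296, 331 and 341 CPM, also apart (0.73 ± 0.15, adjusted p = 0.00418). Without mouse 1 the differences were 0.60 for Fcgr2b (adjusted p = 0.0551) and 0.55 for Fcgrt (adjusted p = 0.0841), and without mouse 2 that of Fcgr2b was 0.56 (adjusted p = 0.0883), in fits of fewer mice that also called fewer genes in all (245 to 357 in place of 546). After thinning, with cells gated again on the UMIs left, the difference in Fcgrt was 0.37 (edgeR adjusted p = 0.224).

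The 3 activating receptors each behaved differently. Fcgr3 was at 770, 797 and 797 CPM in Fcrls-alone and 502, 634 and 584 CPM in Ccr2-alone cells, without overlap, but did not pass (0.35 ± 0.12, edgeR adjusted p = 0.0948) unless the mouse was a replicate block (adjusted p = 0.0223). Fcgr1 was at 228, 291 and 325 CPM against 227, 288 and 323 CPM (-0.12 ± 0.15, interval of -0.42 to 0.18, adjusted p = 0.764). Fcgr4 was called lower in Fcrls-alone cells (-0.85 ± 0.24, adjusted p = 0.0291), although the values overlapped (38.0, 49.2 and 50.8 CPM against 63.5, 45.7 and 108 CPM) and only 2 of 3 mice showed it. Mouse 3 decided that call, and without it the difference was -0.29 (adjusted p = 0.742). The call was also lost without mouse 1 (adjusted p = 0.105), by DESeq2 (adjusted p = 0.111) and with a C1q gate of 1% (adjusted p = 0.187).

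Fcer1g did not pass, at 2540, 2595 and 2862 CPM in Fcrls-alone and 2417, 2593 and 2785 CPM in Ccr2-alone cells (-0.07 ± 0.10, interval of -0.27 to 0.13, adjusted p = 0.79). Counted per activating receptor UMI, which adds the 3 receptors it serves, the chain gave 2.45, 2.28 and 2.44 UMIs in Fcrls-alone and 3.05, 2.68 and 2.74 UMIs in Ccr2-alone macrophages. In the female mice the means were 2.55 ± 0.20 and 3.33 ± 0.20. The value was lower in Fcrls-alone cells in 6 of 6 mice, by 0.31 ± 0.14 (SD) on the log2 scale. An exact paired permutation test gave p = 0.03125, the smallest 6 pairs can give, but was chosen after the values had been seen. Fcgr3, the largest part of the activating receptor UMIs, was higher in Fcrls-alone cells in 6 of 6 mice, so this value is not independent of that difference.

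**Figure D4:**
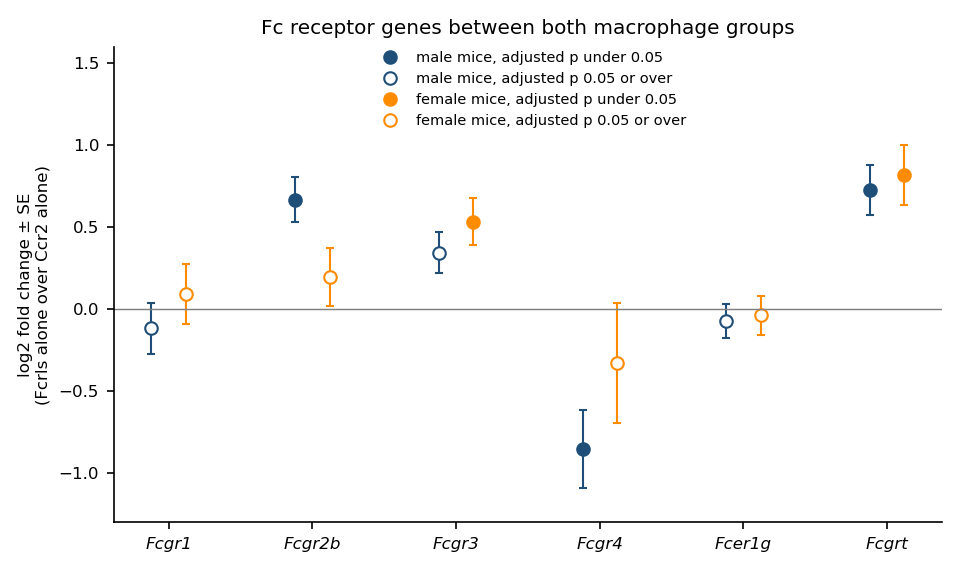
Log2 difference between Fcrls-alone and Ccr2-alone macrophages (y axis, points with error bars of 1 SE) for each of the 6 genes (x axis), from edgeR fits to the 3 male and to the 3 female mice, with filled points for an adjusted p under 0.05. Fcgrt is above 0 and filled in both sexes, Fcgr2b is at 0.67 in the male and 0.20 in the female mice, and Fcgr1 and Fcer1g lie near 0.

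The female mice were tested in the same way (294 Fcrls-alone and 55 Ccr2-alone macrophages), and 2 of the 6 genes were called, against 6.94% of 3947 genes tested. Fcgrt was higher in Fcrls-alone cells (538, 452 and 460 CPM against 248, 336 and 224 CPM, 0.82 ± 0.18, edgeR adjusted p = 0.00787), and so was Fcgr3 (742, 677 and 739 CPM against 482, 494 and 472 CPM, 0.53 ± 0.14, adjusted p = 0.0274). Leaving out a female mouse ended the call of Fcgr3 for each of the 3 (adjusted p of 0.102 to 0.222), with differences of 0.50 to 0.60. The call of Fcgrt ended without mouse 1 (adjusted p = 0.13) or mouse 3 (0.12), and its differences ran from 0.71 to 1.04. Fcgr2b overlapped in the female mice (496, 407 and 427 CPM against 337, 308 and 479 CPM, 0.20 ± 0.18, adjusted p = 0.649). A difference between the sexes was not detected for any member: the interaction term called 0 of 6182 genes by edgeR, with 264 at an unadjusted p under 0.05 and no other tool run, and for Fcgr2b it was 0.45 ± 0.23 (unadjusted p = 0.063, adjusted p near 1).

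Taking all 6 mice with sex in the model, where 12.2% of genes were called, Fcgrt (0.78 ± 0.12, edgeR adjusted p = 6.25e-05), Fcgr3 (0.44 ± 0.09, adjusted p = 0.00152) and Fcgr2b (0.44 ± 0.11, adjusted p = 0.0106) were higher in Fcrls-alone cells. Fcgr4 (-0.59 ± 0.24, adjusted p = 0.12), Fcgr1 (-0.01 ± 0.12, adjusted p = 0.982) and Fcer1g (-0.05 ± 0.08, adjusted p = 0.774) did not pass. Among 13 alternatives to the male fit, fits of all 6 mice included, Fcgr3 passed in 3, with differences of 0.028 to 0.45. Fcgr2b and Fcgrt passed in 11 each. The male, female and 6-mouse fits did not use cells with UMIs of both Fcrls and Ccr2. In them, Fcgr3 (658, 719 and 713 CPM in the male mice) and Fcgrt (398, 375 and 470 CPM) lay between the other groups in 6 of 6 mice, male and female, and Fcgr2b (345, 416 and 393 CPM) in 5 of 6. Fcer1g lay in that order in 2 of 6 mice. Fcgr4 lay in the opposite order, rising from Fcrls-alone to Ccr2-alone cells, in 2 of 6 mice, and Fcgr1 in neither order in any of them.

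The ratio of activating to inhibitory receptor did not overlap between these groups in the male mice and overlapped in the female mice. It was 2.12, 2.20 and 2.46 in Fcrls-alone macrophages (2.26 ± 0.18) and 3.13, 3.65 and 3.05 in Ccr2-alone macrophages (3.27 ± 0.32) of the male mice, with 2.72 ± 0.25 in cells that had both markers. After thinning the male values overlapped as well (2.13, 2.23 and 2.65 against 2.41, 3.73 and 2.59), and the log2 difference went from -0.53 to -0.30. The female values were 2.15, 2.55 and 2.40 against 2.20, 2.70 and 1.69. Fcrls-alone cells had the lower ratio in 5 of 6 mice, by 0.20 on the log2 scale (p = 0.281, exact paired permutation test). The male difference of -0.53 and the female difference of 0.13 were 0.66 apart (p = 0.1, exact permutation test, the smallest for 3 against 3). Taken apart, Fcgr3 over Fcgr2b gave a difference of -0.02 over 6 mice (adjusted p = 0.906), and Fcgr1 over Fcgr2b (-0.47) and Fcgr4 over Fcgr2b (-0.88) were lower in Fcrls-alone cells in 5 of 6 mice each (adjusted p = 0.0938 over 3 exact permutation tests).

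**Figure D5:**
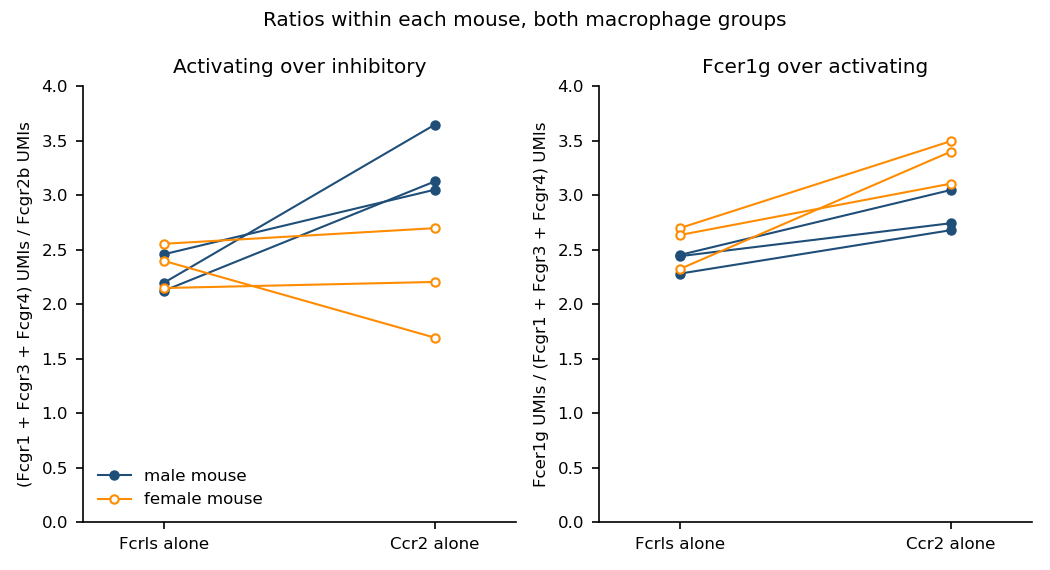
Activating over inhibitory receptor UMIs (left) and Fcer1g UMIs per activating receptor UMI (right) in Fcrls-alone and Ccr2-alone macrophages (x axis), with 1 line per mouse, filled for male and open for female mice. The left lines rise in the 3 male mice and in 2 of 3 female mice, and the right lines rise in 6 of 6.

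Shares of cells moved with the levels. In the male mice 93.1% of Fcrls-alone and 80.4% of Ccr2-alone macrophages held an Fcgr2b UMI (58.9% and 43.8% after thinning, which kept 656 and 151 cells), and 6.10% ± 1.3 against 19.7% ± 9.0 held an activating receptor without it. The groups were similar in depth, with medians of 8481 and 8020 UMIs, and in mitochondrial UMIs (1.98% and 1.82%). Markers of other classes also moved. The summed level of 4 DC markers (Naaa, Irf8, H2-Aa and Ifi205, mainly H2-Aa) was 6455 to 11052 CPM in Fcrls-alone and 13700 to 18411 CPM in Ccr2-alone macrophages, and that of 4 monocyte markers (Vcan, Fn1, Lyz2 and S100a4) 13022 to 14652 and 15781 to 17628 CPM. Of these monocyte markers, S100a4 was at 4.38, 2.59 and 11.3 CPM in Fcrls-alone and 52.9, 157 and 97.3 CPM in Ccr2-alone macrophages. Lyz2, most of the sum, was at 13017 to 14646 and 15723 to 17471 CPM. Fn1 overlapped (1.46, 1.55 and 11.6 against 5.29, 0 and 13.7 CPM), and Vcan was at 0.314 CPM or less. S100a4 was also high in DCs (489 ± 92.1 CPM) and T or NK cells (600 ± 222 CPM). The summed level of 4 macrophage markers (Csf1r, Cx3cr1, Adgre1 and Mrc1) was 3506 to 3915 and 1905 to 2290 CPM. Neutrophil markers (75.9 to 90.6 against 52.9 to 103 CPM) overlapped, and markers of B cells and of T or NK cells were at 18.1 CPM or less. The part of these markers in the receptor values was not tested.

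The partners of the receptors were looked up in 5 lists, each over all listed genes. Of 13 other Fc and Fc-like receptors (IgE, IgM and polymeric Ig receptors, Fc receptor-like genes, Trim21 and B2m), 1 could be tested between the macrophage groups, B2m, and it was not called. Of 6 receptors that pair with the FcRγ chain, 2 could be tested and 1 was called, beside 9.31% of all genes: Clec4n (dectin-2, a receptor for fungal mannans) was at 159 ± 32.0 CPM in Fcrls-alone and 18.3 ± 11.9 CPM in Ccr2-alone macrophages (log2 difference of 3.42 ± 0.30, edgeR adjusted p = 7.41e-07), and the difference was 3.61 in the female mice (adjusted p = 0.00012). For the chain itself the difference was -0.07.

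Of 19 kinases and effectors of ITAM signaling, 17 were tested, 0 were higher and 2 were lower in Fcrls-alone cells, beside 9.31% called among all genes, with a median log2 difference of -0.23 against 0.02 over all genes. Among these was Lat2, an adaptor of the LAT family (70.6 ± 11.8 against 163 ± 22.7 CPM, -1.28 ± 0.18, edgeR adjusted p = 0.000112), which was also lower in the female mice (-1.44, adjusted p = 0.00278). The median of this list in the female mice was -0.06, against 0.01 over all genes. Of 8 phosphatases and adaptors of ITIM signaling, the arm that Fcgr2b uses, 7 were tested and 0 called (median -0.37, and 2 called lower with the mouse as a replicate block). Their median in the female mice was 0.05, so the lower median was seen in the male mice only. Of 8 other ITIM receptors, 7 were tested and 1 was lower (1 higher and 2 lower with the replicate block), Pirb (paired Ig-like receptor B, which binds MHC class I), at 23.9 ± 9.46 against 62.7 ± 26.5 CPM (-1.60 ± 0.31, adjusted p = 0.00248), and at -1.90 in the female mice (adjusted p = 0.00375). The median of that list was 0.00 in the male and 0.20 in the female mice.

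Across 27 sums of the male mice (9 classes, with the 4 macrophage groups kept apart, and 3 mice), each gene was matched by Pearson's correlation of log2(CPM + 10) with 4607 genes of at least 50 CPM on average. These values describe the pattern over classes, the sums share a lane and a mouse, and no test was made. The genes near Fcgr1 included Ifi207 (r = 0.976), Lgmn, Tmbim1 and Ifi202b. The pattern of Fcgr2b came nearest to Ctsh (0.954), which encodes cathepsin H, followed by Mt2, Ly86, Rab7b and Fuca1. That of Fcgr3 was nearest to Ccrl2 (0.976), then Nfkbiz, Pla2g7, Lyz2 and Fth1, and that of Fcgr4 to Cxcl2 (0.917), then Pla2g7, Fth1, Nlrp3 and Cd33. Fcer1g was most like Tyrobp (0.971), which encodes DAP12, the other ITAM chain of myeloid and NK cells, then Tnfrsf1a, Rsu1, Evi2a and Arl11. For Fcgrt the nearest gene was Tmem141 (0.98), then Aif1, Cd302, Cxcl16 and Mt1.

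Among the members themselves, the inhibitory receptor ran closest to FcRn (Fcgr2b and Fcgrt, r = 0.923), as did Fcgr1 (0.91). Fcgr3 and Fcgr4, which share the neutrophils, were at 0.898, and Fcgr3 and its chain Fcer1g at 0.889. The lowest value of the 15 pairs was that of Fcgr2b with Fcer1g (0.501). Fcer1g was at 0.677 with Fcgr1, which needs the chain, and at 0.676 with Fcgrt, which does not. Whether need of the chain bears on these values was not tested. Over the 9 classes, Fcgr2b and Fcer1g had their highest mean in Fcrls-alone macrophages (495 ± 21.2 and 2666 ± 173 CPM). Within the DC class, which was kept whole here, the other DCs had 516 ± 169 CPM of Fcgr2b. In neutrophils Fcgr2b was at 29.7 ± 5.0 CPM and Fcer1g at 2038 ± 111 CPM.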

How the data were processed

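CD45+ DRG cells of 3 male and 3 female mice were run with hashtag antibodies in a single 10x 3′ v3 lane. The authors deposited raw UMI counts per gene and cell from Cell Ranger 3.1.0 (the version in the matrix header, with mm10 in the submitters' processing notes), as a matrix of 4395 barcodes with hashtag counts and a matrix of 2668 cells left by their Seurat filters (more than 200 genes, fewer than 5000, mitochondrial reads below 5%) and by HTODemux. Repeating these steps (Seurat 5.3.0, R 4.3.3) gave exactly the 2668 cells, all with a male hashtag, and 1073 cells with a female hashtag, while 269 doublets and 101 negatives were left out. The strain and sex behind each hashtag come from the authors' list, and the mouse was the replicate.

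Classes were gated on raw UMIs. Neutrophils had S100a8 and S100a9 at 5% or more, macrophages C1q genes at 0.5% or more, and B cells and T or NK cells at least 4 UMIs of their markers, with cells of more than 1 gate set aside. DCs and then monocytes needed at least 4 UMIs of theirs. Fcrls and Ccr2 groups were set by at least 1 UMI. C1q stood at 0.5 to 1% in 85 macrophages and at 0.25 to 0.5% in 14 other cells. Scrublet (scanpy 1.11.5) marked 12 cells (0.45%), which were kept. Counts were summed per mouse and class and tested in edgeR 4.0.16 (TMM factors, filterByExpr, quasi-likelihood test, Benjamini-Hochberg over all genes tested), with DESeq2 1.42.0 as an alternative. Intervals of log2 differences are at 95%. The sums of a mouse deviated together (r = 0.104, 0.188 and 0.358 for mouse 1, 2 and 3), as they come from the same animal, so the fit with the mouse as a replicate block is given where it changes a call. Tested on simulated data of the comparison of the macrophage groups (5611 genes), edgeR found 67.7% of the genes given a log2 difference of 1 (67 of 99) and 99% of those given 2 (99 of 100). It made 14 false calls beside these. The simulated sums were drawn independently, unlike those of a mouse, and genes of low level were not among those changed. No difference under 1 was simulated, so the share found among smaller ones is not known.

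The 6 genes, the other lists and the gates were chosen with earlier results of these data known. All 6 genes are named in every class. Of each list, up to 4 genes are named, those with the largest difference among the ones that passed and had the same sign in all mice, and for likeness the 5 nearest genes. A few genes that these rules name are not reported here. Cells were thinned to 2000 UMIs for shares and ratios, which kept the class of the whole cell. For the thinned gene tests, cells were gated again on the UMIs left. A count of 0 is given with the limit that 3 counts set. UMIs are counts of tagged molecules, and intervals cover counting error only.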

Additional observations from a re-analysis of the deposited data

How the results depend on the processing

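Of the values for single members, 321 kept their direction and side of the threshold under the alternatives, 26 no longer passed, 6 passed only there and 11 changed sign. Those with another sign included, for Fcrls-alone against Ccr2-alone macrophages thinned to 2000 UMIs and gated again, Fcgr1 (0.26), Fcgr4 (0.060) and Fcer1g (0.052). In the female mice they were Fcgr4 and Fcer1g when a mouse was left out (-0.80 to 0.44 and -0.083 to 0.0043). For macrophages against neutrophils they were Fcgr4 without TMM factors (0.24), with Cd3d cells kept (0.0090) and in the female mice (0.16), and Fcer1g without TMM factors (0.40), and for B cells against T or NK cells Fcgrt in the female mice (0.60). The cause was not tested. None of these passed the threshold except Fcer1g against neutrophils (adjusted p = 0.0117). The count of genes called between the macrophage groups went from 546 to 169 when cells were thinned and gated again. It went to 245 to 357 when a mouse was left out (female mice, from 274 to 84 to 176). Leaving out a mouse gave 1059 to 1575 calls in place of 1793 against monocytes, 1236 to 1792 in place of 1995 against DCs and 773 to 1294 in place of 1490 between lymphoid classes. The female mice gave 803, 1181 and 2167 calls against monocytes, DCs and neutrophils, and dropping the filter on low counts 6105 against neutrophils in place of 3952. Without Fcgr1 the ratio was 1.85 in macrophages, 2.59 in monocytes, 1.69 in Fcrls-alone and 2.29 in Ccr2-alone macrophages. Thinned, it was 19.7 in neutrophils and 2.91 in Ccr2-alone macrophages, with equal weight per cell 23.2 in neutrophils, and the log2 difference of the macrophage groups was -0.30 thinned and -0.20 over all 6 mice. The replicate block called 715 genes between the macrophage groups, DESeq2 390, and beyond Fcgr3 in that comparison and Fcgr2b against DCs the block changed no call of a member in the male or female mice. Depth limits the lymphoid classes most: Fcgr2b in T or NK cells rests on 9 UMIs. All mice shared 1 lane, so whether the values repeat in another lane was not tested, and 3 mice against 3 allow no exact p under 0.1.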

Other observations

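In the male mice, monocytes were split by Ly6c2, the marker of classical monocytes. Cells with at least 2 Ly6c2 UMIs (69 cells) had 131, 229 and 146 CPM of Fcgr2b in the 3 mice, and those with fewer (22 cells, 3 to 13 per mouse) had 277, 352 and 278 CPM, without overlap. The ratio of activating to inhibitory receptor was 4.02 ± 1.0 and 2.25 ± 0.31, also without overlap. Fcgr4, which is known for its rise in nonclassical monocytes, was at 28.8 ± 16.1 and 40.7 ± 7.4 CPM, which overlap, on 24 and 10 UMIs. In the female mice Fcgr2b was at 102, 129 and 184 CPM in cells with at least 2 Ly6c2 UMIs and at 112 and 128 CPM in those with fewer (2 mice), which overlap, and the ratios of pooled UMIs were 4.0 and 4.06. Markers of DCs moved with the split in the male mice (837 to 1986 CPM in cells with at least 2 Ly6c2 UMIs and 7932 to 13360 CPM in the others). Those of T or NK cells were at 0 to 22.9 and 0 to 139 CPM. Their part in these values was not tested. No test was made on these splits.

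The granule protein precursors (38 cells, with Elane, Mpo, Prtn3 or Ctsg) held Fcer1g at 1767 ± 207 CPM and Fcgr3 at 207 ± 19.6 CPM, against 2038 ± 111 and 300 ± 22.2 CPM in neutrophils. Fcgr4 gave 1 UMI in all precursors and 48.7 ± 7.6 CPM in neutrophils, whereas Fcgr2b was at 58.1 ± 9.8 CPM in precursors and 29.7 ± 5.0 CPM in neutrophils, without overlap. The ratio of the precursors was 3.83 ± 0.76, and that of neutrophils 12.3 ± 2.8. These values are of the male mice, with 11, 4 and 23 precursors in mouse 1, 2 and 3. In the female mice Fcgr2b was at 67.5, 67.6 and 0 CPM in 9 precursors and 32.3, 27.5 and 24.0 CPM in neutrophils, which overlap.

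In macrophages with neither Fcrls nor Ccr2 UMIs (67 cells), the ratio was 2.50, 2.98 and 4.09 in the 3 male mice, and Fcgr1 ran from 141 to 481 CPM. Cells in more than 1 gate had a ratio of 4.70 ± 0.54, and cells in no gate 2.98 ± 1.3.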
